A study of Mus musculus with 15 samples.

Results

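The SoxB genes Sox1, Sox2, Sox3, Sox14 and Sox21 were examined for EZH2, FLAG and H3K27me3 in mouse embryonic fibroblasts. Their intervals were found by position, as any interval of 3 deposited peak lists reaching within 40 kb of the gene position in build mm9. The depositors named the H3K27me3 list residual H3K27me3, and it is called H3K27me3 below. The positions were 12.395 Mb on chromosome 8 for Sox1, 34.549 Mb on chromosome 3 for Sox2, 58.144 Mb on chromosome X for Sox3, 99.775 Mb on chromosome 9 for Sox14 and 118.632 Mb on chromosome 14 for Sox21, each given to 1 kb. This gave 20 of 2466 intervals, namely 6 of 902 for EZH2, 8 of 438 for FLAG and 6 of 1126 for H3K27me3. No measured value entered the choice of genes. The genes were picked, however, when results of these lists were already known.

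The 3 libraries came from EED-floxed fibroblasts in which wild-type EZHIP was stably expressed from a lentivirus, with no treatment given in the labels. EZH2 is the catalytic subunit of PRC2, the complex that methylates histone H3 at lysine 27, and EED is a further subunit of that complex. EZHIP inhibits PRC2, and FLAG was taken as a readout of EZHIP because the design names EZHIP among the profiled targets. The labels do not spell out the tag. The series has 15 libraries, and the other 12 (DMSO, tazemetostat, EED-null and EZHIP M406E cells) were not analysed here. Each antibody was represented by 1 library, so there is no replicate spread, no test was made, and the values below are descriptions of these lists. The lists give positions without height or read depth, so a wide interval is not necessarily a strong one. Expression was not measured in these lists, and the fibroblast identity of the cells was not checked against marker genes because annotation of build mm9 was not used here. For the same reason exons and untranslated regions were not placed on the intervals.

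SoxB proteins are transcription factors that bind DNA through an HMG box. Sox1, Sox2 and Sox3 form the SoxB1 group, which act mainly as activators and keep neural progenitors undifferentiated, whereas Sox14 and Sox21 form the SoxB2 group, which act mainly as repressors and oppose SoxB1 activity. The genes are intronless and have CpG-rich start regions, and they are typical targets of Polycomb repression in cells outside the neural lineage. Sox2 also maintains pluripotent cells, Sox3 acts in pituitary and neural development, and Sox14 marks subsets of interneurons.

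Because PRC2 is known to gather at CpG-rich start regions, the DNA just upstream of the SoxB genes is shown first. RefSeq sequences were found for 4 of 5 genes, that is for Sox1, Sox2, Sox14 and Sox21, and not for Sox3. Each run is the 250 bases before the annotated start, written 5′ to 3′ on the gene's strand, with CpG dinucleotides in capitals. Coordinates of these sequences are in build GRCm38.p6 and cannot be set against the mm9 intervals.
Sox1 promoter (GRCm38.p6 chr8:12395269-12395518, + strand): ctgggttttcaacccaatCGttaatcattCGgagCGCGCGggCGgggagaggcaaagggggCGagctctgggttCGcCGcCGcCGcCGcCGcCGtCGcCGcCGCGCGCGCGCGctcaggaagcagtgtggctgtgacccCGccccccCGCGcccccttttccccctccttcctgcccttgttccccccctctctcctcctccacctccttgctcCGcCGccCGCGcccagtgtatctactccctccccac
Sox2 promoter (GRCm38.p6 chr3:34649745-34649994, + strand): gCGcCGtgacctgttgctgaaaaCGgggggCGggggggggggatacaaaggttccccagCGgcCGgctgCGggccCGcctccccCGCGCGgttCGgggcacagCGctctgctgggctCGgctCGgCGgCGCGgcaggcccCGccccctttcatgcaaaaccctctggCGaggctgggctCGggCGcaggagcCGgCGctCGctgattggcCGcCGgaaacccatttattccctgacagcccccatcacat
Sox14 promoter (GRCm38.p6 chr9:99876171-99876420, - strand): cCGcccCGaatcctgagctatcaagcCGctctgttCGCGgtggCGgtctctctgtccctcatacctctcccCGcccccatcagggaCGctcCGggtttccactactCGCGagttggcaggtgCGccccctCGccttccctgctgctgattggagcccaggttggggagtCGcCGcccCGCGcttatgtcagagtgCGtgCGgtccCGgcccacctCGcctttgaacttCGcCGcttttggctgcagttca
Sox21 promoter (GRCm38.p6 chr14:118237031-118237280, - strand): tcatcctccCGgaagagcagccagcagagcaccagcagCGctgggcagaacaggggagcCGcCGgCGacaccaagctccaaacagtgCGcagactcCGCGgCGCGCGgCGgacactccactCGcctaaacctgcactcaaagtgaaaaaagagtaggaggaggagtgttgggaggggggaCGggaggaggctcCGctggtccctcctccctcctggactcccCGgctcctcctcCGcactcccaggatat

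CpG dinucleotides numbered 29 in the Sox1 sequence, 27 in Sox2, 23 in Sox14 and 17 in Sox21. The median of 32851 RefSeq promoter windows of that length was 6, with quartiles of 2 and 16. All 4 genes were thus above the upper quartile, Sox21 by a single CpG, and the SoxB1 pair had more than the SoxB2 pair. G and C made up 71.2% of the Sox1 window, 72.0% of Sox2, 65.6% of Sox14 and 65.2% of Sox21, against a median of 52.4%. The capitals cluster differently, since in Sox1 many fall in a single dense run in the distal part of the window while in Sox2 and Sox14 they are spread along its length. Letters of a GC box (GGGCGG on either strand) occurred in Sox1, Sox2 and Sox14 and not in Sox21, and in 32.7% of all windows. A CCAAT box (CCAAT, either strand) was found in Sox1, Sox2 and Sox14, and in 33.8% of all windows. An octamer (ATGCAAAT), a Sox core (CATTGT) and a TATA box (TATAAA) were searched on both strands and found in none of the 4 windows, against 1.60%, 10.7% and 12.4% of all windows. Of these motifs only the GC box holds a CpG, and a match is a match of letters only.

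All 5 SoxB genes lay under all 3 signals. The gene position was covered by an EZH2, a FLAG and an H3K27me3 interval at Sox1, Sox2, Sox3, Sox14 and Sox21 alike. When overlapping intervals of the 3 lists were merged, 34.1% of the 1175 regions held all 3 signals. Those regions are not genes, were not matched for width and include H3K27me3 intervals without EZH2, so that share is not like for like. Of 6 EZH2 intervals at these genes, 6 overlapped FLAG (100%, exact Clopper-Pearson 95% interval 54.1 to 100%, counting error only), where 45.5% of the whole EZH2 list did. That range treats the 6 as independent draws, although 2 lie at Sox1 and the genes were chosen, so it describes no wider population. H3K27me3 overlapped the same 6, where 95.2% of the whole list did. The EZH2 intervals of these genes were wide, and among the 156 EZH2 intervals of at least 9999 bp, the narrowest width at a SoxB gene, FLAG was present at 87.8% and H3K27me3 at 99.4%. The SoxB share is thus to be read against 87.8% as well as 45.5%, and it was not tested against either. In the reverse direction, 8 of 8 FLAG intervals overlapped EZH2 (96.6% in the whole list) and H3K27me3 (98.6%), and 6 of 6 H3K27me3 intervals carried EZH2 (71.7%) and FLAG (36.1%). The H3K27me3 list reaches down to 399 bp, whereas its SoxB intervals are 9399 bp or wider. No share matched for width was computed for that list, so 71.7 and 36.1% are not like for like.

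**Figure D1:**
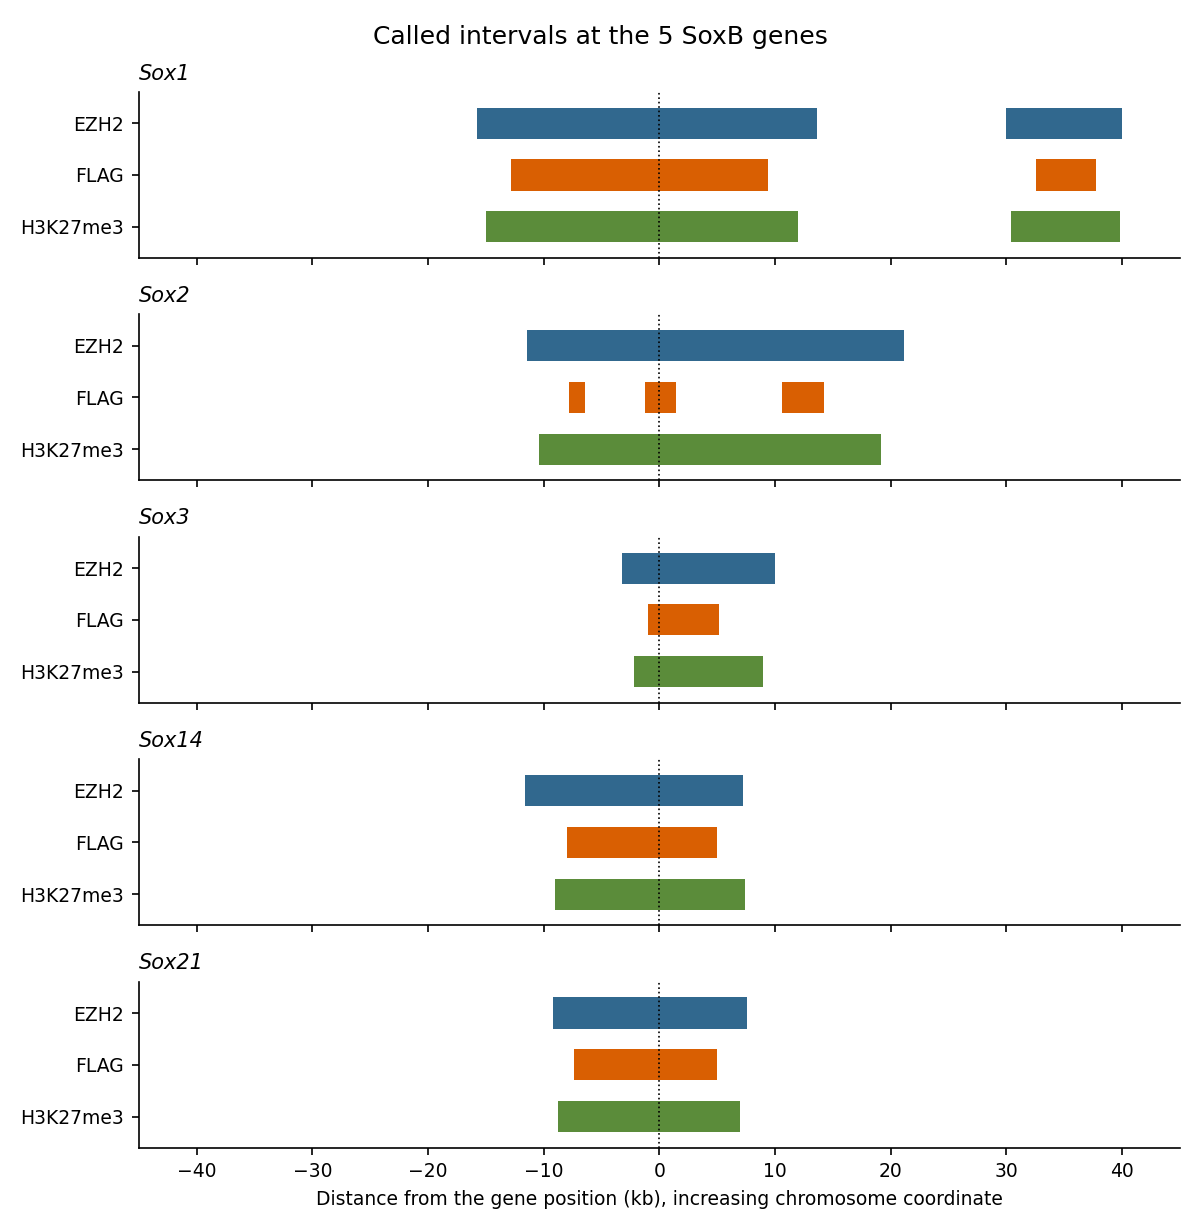
Intervals within 40 kb of each SoxB gene, with the distance from the gene position in kb on the x axis and 1 row per signal. Bars are the called intervals of 1 library each. All 3 signals cross the dotted gene position at the 5 genes, FLAG is broken into 3 intervals at Sox2, and Sox1 has a further set between 30.0 and 40 kb away.

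Sox1, the SoxB1 member that is largely restricted to neural cells, carried the widest FLAG interval of the group. EZH2 extended over 29399 bp, from 12379201 to 12408599 on chromosome 8. FLAG extended over 22199 bp, from 12382201 to 12404399, and H3K27me3 over 26999 bp, from 12380001 to 12406999. By width the FLAG interval ranked 2 of 438, the EZH2 interval 7 of 902 and the H3K27me3 interval 58 of 1126. It was also the widest of 24 FLAG intervals and the widest of 48 EZH2 intervals on chromosome 8, and with a second FLAG interval the locus held 22.2% of the FLAG bases of that chromosome.

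That second interval belonged to a smaller site downstream of the gene. There EZH2 covered 9999 bp from 12425001 to 12434999, FLAG 5199 bp from 12427601 to 12432799 and H3K27me3 9399 bp from 12425401 to 12434799. None of these reached the gene position, and the stretch between the sites held no interval of any list. Sox1 was the only gene of the 5 with more than 1 EZH2 interval in the window. In the whole list 24.3% of EZH2 intervals have another within 100 kb, a different measure that counts intervals and not genes. In RefSeq for GRCm38.p6 Sox1 overlaps the long noncoding gene Sox1ot. Whether the distal site falls in that gene was not determined. The window ends just past this site. The farthest intervals inside it end 40 kb from the position for EZH2, 39.8 kb for H3K27me3 and 37.8 kb for FLAG. The nearest outside it are an H3K27me3 interval of 799 bp starting at 50.8 kb and an EZH2 interval of 2399 bp starting at 82.0 kb, both at Sox1 and both without FLAG. The other 4 genes had no further interval out to 100 kb.

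Sox2, which maintains both pluripotent and neural stem cells, had the widest EZH2 interval of the group and the least complete FLAG coverage. EZH2 extended over 32599 bp, from 34537601 to 34570199 on chromosome 3, the third widest of 902. H3K27me3 extended over 29599 bp, from 34538601 to 34568199, rank 52 of 1126. FLAG was called as 3 separate intervals, of 1399 bp from 34541201 to 34542599, 2599 bp from 34547801 to 34550399 and 3599 bp from 34559601 to 34563199. The middle one covered the gene position, and the widest lay 10.6 to 14.2 kb beyond it. They were separated by 5201 and 9201 bp without a FLAG call, over which EZH2 and H3K27me3 ran on unbroken. All 3 were narrower than the FLAG list's median of 3999 bp, and the first, with rank 404 of 438, was the narrowest of 12 FLAG intervals on chromosome 3.

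The contrast between Sox1 and Sox2 lay in how FLAG was divided more than in the total length it spanned. At Sox2 FLAG covered 7597 bp, or 23.3% of the EZH2 interval, and at Sox1 it covered 22199 bp, or 75.5%. From the first to the last FLAG base, however, the Sox2 locus spanned 21999 bp (67.5% of EZH2), 200 bp short of the Sox1 interval. The reach to each side differed, from -12.8 to 9.4 kb around the position at Sox1 and from -7.8 to 14.2 kb at Sox2. Of 410 EZH2 intervals with FLAG, 2.68% held 2 or more FLAG intervals and 0.488% held 3 or more, Sox2 being 1 of the 2 in the last class. Among the 10 widest EZH2 intervals of the list, the 8 at other loci included 6 with FLAG, whose coverage ranged from 8.91 to 77.1%. Both the Sox1 and the Sox2 value fell inside that range. Of those 6, 3 had a lower coverage than Sox2, and the rest of the 8 had no FLAG, so low coverage was common among the widest EZH2 intervals. Joining FLAG intervals across gaps of up to 10 kb, a setting chosen after seeing the data, raised the ratio of FLAG to EZH2 length at Sox2 from 0.233 to 0.675. The lists hold no height, so the signal within these gaps is unknown. Sox2 lies within the long noncoding gene Sox2ot in the GRCm38.p6 annotation.

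Sox3, the X-linked SoxB1 gene, had the shortest EZH2 and H3K27me3 intervals over a gene position. EZH2 covered 13199 bp from 58140801 to 58153999, FLAG 6199 bp from 58143001 to 58149199 and H3K27me3 11199 bp from 58141801 to 58152999. These ranked 92 of 902, 94 of 438 and 219 of 1126. The FLAG interval was wider than each of the 3 at Sox2 and the distal one at Sox1, and it was the widest of 9 on chromosome X and made up 18.3% of that chromosome's FLAG bases. FLAG covered 47.0% of EZH2. The site was lopsided, with EZH2 reaching 3.2 kb to the lower side of the gene position and 10.0 kb to the higher side, and FLAG 1.0 and 5.2 kb.

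Sox14 and Sox21, the repressive SoxB2 pair, had similar extents of all 3 signals. At Sox14 EZH2 covered 18799 bp from 99763401 to 99782199 on chromosome 9, FLAG 12999 bp from 99767001 to 99779999 and H3K27me3 16399 bp from 99766001 to 99782399. At Sox21 on chromosome 14 EZH2 covered 16799 bp from 118622801 to 118639599. FLAG there covered 12399 bp from 118624601 to 118636999, and H3K27me3 15799 bp from 118623201 to 118638999. The FLAG intervals ranked 23 and 27 of 438, the EZH2 intervals 48 and 61 of 902 and the H3K27me3 intervals 145 and 152 of 1126. FLAG covered 69.1% of the EZH2 interval at Sox14 and 73.8% at Sox21. These values lay inside the SoxB1 range of 23.3 to 75.5% over single sites. With both Sox1 sites counted, the ratio of FLAG to EZH2 length was 0.695 at Sox1, 0.233 at Sox2 and 0.470 at Sox3. Sox14 at 0.691 then lay inside the SoxB1 range and Sox21 at 0.738 above it. The place of Sox21 thus depended on the unit, and a difference between the groups was not tested.

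**Figure D2:**
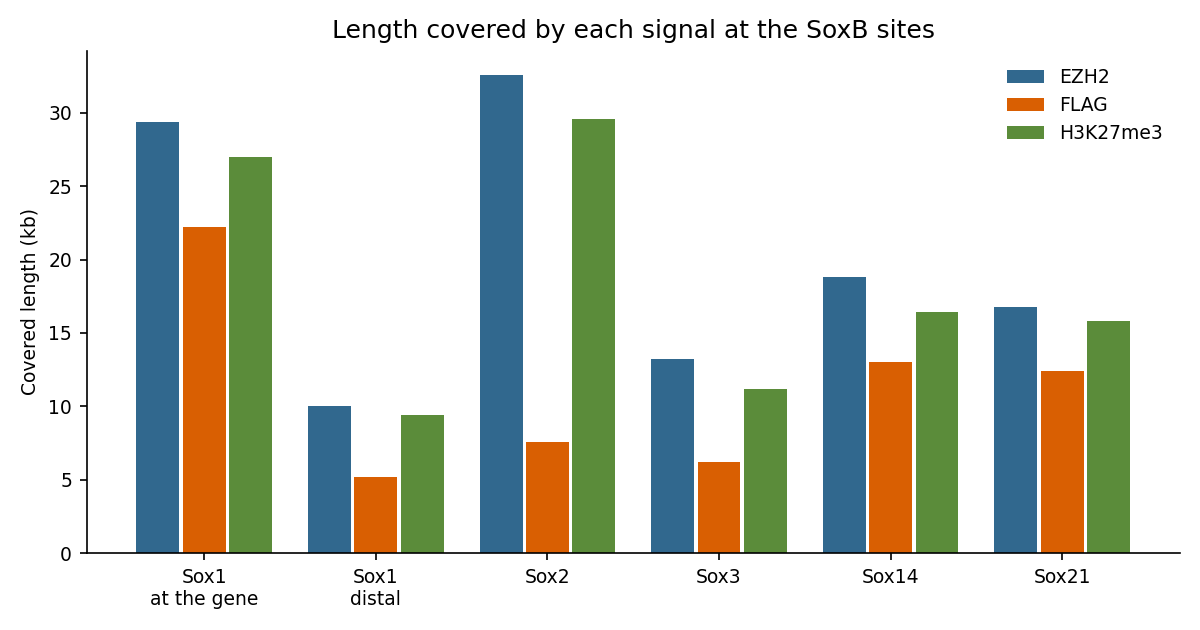
Length covered by each signal, in kb, at the 6 SoxB sites, with Sox1 split into the site at the gene and the distal one; each bar is 1 library. EZH2 is the longest at every site, H3K27me3 is close behind, and FLAG ranges from 5.2 kb at the distal Sox1 site to 22.2 kb at the gene, with 7.6 kb at Sox2.

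Relative to each gene's strand, the sites did not extend alike. RefSeq gives the plus strand for Sox1 and Sox2 and the minus strand for Sox14 and Sox21. EZH2 at Sox1 reached 15.8 kb upstream and 13.6 kb downstream of the position. The other 3 genes with a known strand reached farther downstream, by 21.2 against 11.4 kb at Sox2, 11.6 against 7.2 kb at Sox14 and 9.2 against 7.6 kb at Sox21. FLAG reached 5.0 kb upstream at both Sox14 and Sox21, and 8.0 and 7.4 kb downstream. The gene position is known to 1 kb, and which base of the gene it marks is not stated, so differences of this size between the sides of Sox21 are near that limit.

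Set in their lists, the SoxB intervals were wide for EZH2 and H3K27me3 and mixed for FLAG. All 6 EZH2 intervals and all 6 H3K27me3 intervals exceeded their list medians of 5199 and 4599 bp, and the SoxB medians were 17799 and 16099 bp. The share of the list that was narrower ran from 82.7% at the distal Sox1 site to 99.7% at Sox2 for EZH2, and from 76.0 to 95.4% at the same sites for H3K27me3. For FLAG 5 of 8 exceeded the list median, the exceptions being the 3 pieces at Sox2. The SoxB genes contributed 0.665% of EZH2 intervals and 1.94% of EZH2 bases, 1.83% of FLAG intervals and 3.01% of FLAG bases, and 0.533% of H3K27me3 intervals and 1.18% of H3K27me3 bases. Ranks come from lists with different narrowest widths (EZH2 2199 bp, FLAG 1199 bp, H3K27me3 399 bp), so a rank in one list is not comparable with a rank in another.

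**Figure D3:**
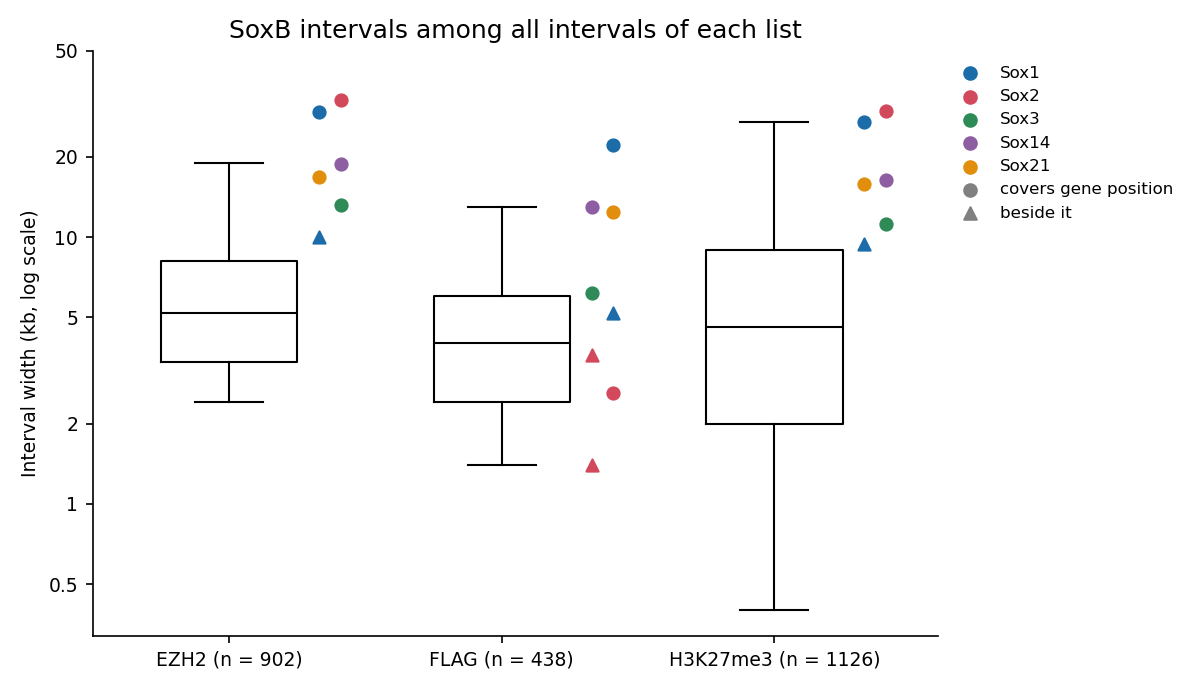
Interval width in kb on a log scale for each list, with the box at the quartiles, the line at the median and whiskers at the 5 and 95 percentiles of all intervals. Coloured points are the SoxB intervals; those for EZH2 and H3K27me3 lie above the upper quartile, and the 3 Sox2 FLAG intervals lie below the FLAG median of 4.0 kb.

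The called H3K27me3 intervals followed the EZH2 intervals closely and mostly stopped short of them. Each list comes from its own library, with caller, threshold and depth unknown. An edge therefore marks where a call ends, which need not be where the signal ends. Over the 5 genes H3K27me3 covered 109394 bp and EZH2 120794 bp, a ratio of 0.906. By site the ratio was 0.918 at the Sox1 gene, 0.940 at the distal Sox1 site, 0.908 at Sox2, 0.848 at Sox3, 0.872 at Sox14 and 0.940 at Sox21. Values at these 6 sites lay between the quartiles (0.750 and 1.00) of the 764 sites with a single EZH2 and a single H3K27me3 interval, whose median was 0.900. The H3K27me3 interval was shorter than EZH2 at 6 of 6 SoxB sites, where it was shorter at 72.4% of all such sites. It lay wholly inside EZH2 at 5 of 6, where it did at 65.7%. Neither share was matched for width. Among the 125 of the 764 sites with EZH2 of at least 9999 bp, the quartiles were 0.909 and 1.00 and the median 0.950. The 6 SoxB values were all under that median, and Sox2, Sox3 and Sox14 were also under that lower quartile.

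Edge by edge, 11 of 12 H3K27me3 edges lay inside EZH2, where 66.6% of 1528 edges did over all sites with a single interval of each. Distances are signed, negative inside EZH2, and resolved to the 200 bp grid of the lists. The Sox1 gene site had -800 bp on the lower and -1600 bp on the higher side, and the distal Sox1 site had -400 and -200 bp. Sox2 had -1000 and -2000 bp, Sox3 -1000 bp on both sides, and Sox21 -400 and -600 bp. Sox14 was uneven, with -2600 bp on the lower side and 200 bp on the higher side, the single edge at which H3K27me3 went past EZH2, by 1 grid step. The SoxB median was -900 bp, and over 1528 edges of all such sites it was -400 bp with quartiles of -600 and 0 bp. Of the SoxB edges 6 of 12 lay at least 1000 bp inside EZH2, and 15.3% of all edges did. These edge values over all sites were not matched for width, and the SoxB EZH2 intervals are wide. The extent of methylation at these genes in cells without EZHIP was not analysed here.

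**Figure D4:**
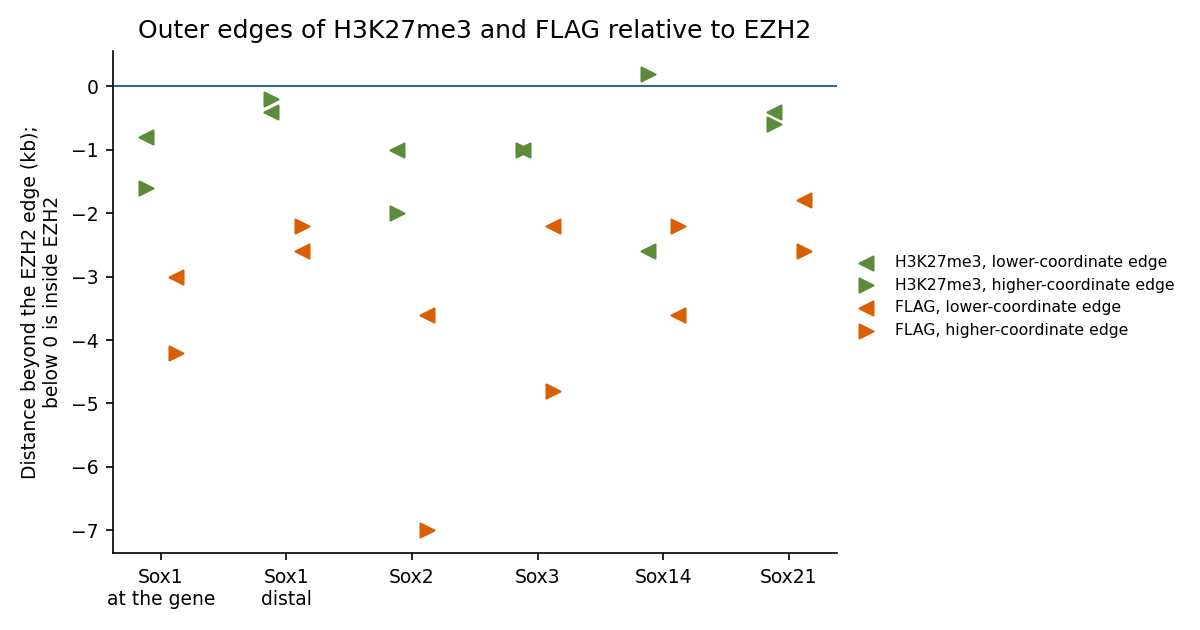
Outer edges of H3K27me3 and FLAG relative to the EZH2 edge, in kb, at the 6 SoxB sites; 0 is the EZH2 edge, negative values are inside, and the triangles point to the lower- and higher-coordinate side. H3K27me3 sits between -2600 and 200 bp and FLAG between -7000 and -1800 bp.

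The called FLAG intervals lay deepest of the 3 signals at the SoxB sites, with the same limit that each list was called on its own library. All 12 outer FLAG edges were inside EZH2, as were 99.6% of 736 edges over all sites with a single EZH2 interval and FLAG. The SoxB edges ran from -7000 bp at the higher side of Sox2 to -1800 bp at the lower side of Sox21, with a median of -2800 bp. Over the 736 edges at the 368 sites with a single EZH2 interval and FLAG the median was -1800 bp, with quartiles of -2400 and -1400 bp. Those sites were not matched for width. The SoxB EZH2 intervals are wide and leave more room for an edge to lie deep, so the 2 medians are not like for like. Every FLAG interval of the SoxB genes also lay wholly inside H3K27me3 (8 of 8), as did 98.2% of the whole FLAG list. The order FLAG inside H3K27me3 inside EZH2 held on both sides at 5 of 6 SoxB sites, all but Sox14, and at 57.3% of the 368 sites where it could be read. That 57.3% was not matched for width either.

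Coverage of EZH2 by FLAG divided the SoxB sites. The Sox1 gene site (75.5%), Sox21 (73.8%) and Sox14 (69.1%) lay above the upper quartile of 65.1% for the 368 sites. The distal Sox1 site (52.0%) and Sox3 (47.0%) lay near the median of 52.1%, and Sox2 (23.3%) lay below the lower quartile of 36.9%, with 5.43% of sites lower. Among the 118 such sites with EZH2 of at least 9999 bp, the quartiles were 41.0 and 72.4% and the median 61.0%. Against these wide sites the Sox1 gene site and Sox21 remained above the upper quartile, and Sox14 fell between the quartiles with 68.6% of sites lower. The distal Sox1 site had 37.3% of sites lower, Sox3 29.7% and Sox2 9.32%. The 5 genes together had 66592 bp of FLAG on 120794 bp of EZH2, a ratio of 0.551.

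**Figure D5:**
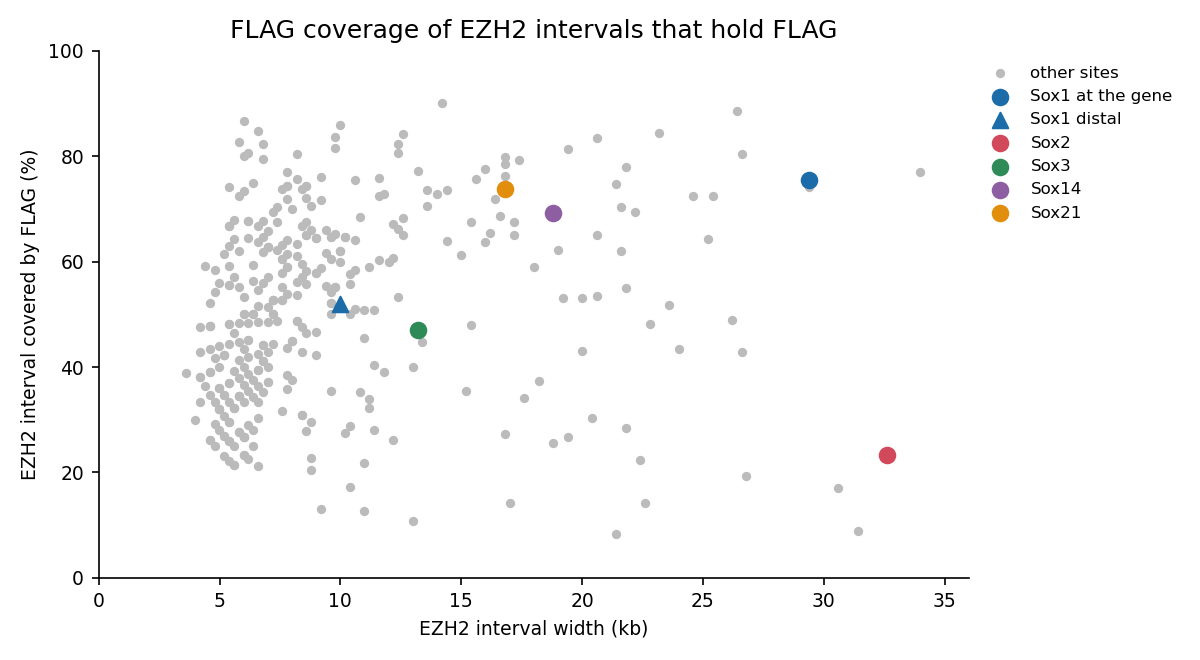
Share of each EZH2 interval covered by FLAG, in percent, against the width of the EZH2 interval in kb, for sites with a single EZH2 interval and at least 1 FLAG interval. Grey points are 362 other sites and coloured points the SoxB sites; Sox1 and Sox2 have similar EZH2 widths and lie at 75.5 and 23.3%.

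The SoxB loci differed in how isolated they were. At Sox2 the next EZH2 intervals on chromosome 3 were 7.26 Mb below and 10.6 Mb above, and the next FLAG intervals 16.6 and 48.4 Mb away. Neighbouring intervals over the whole lists were separated by a median of 1.10 Mb for EZH2 and 2.01 Mb for FLAG, with upper quartiles of 3.32 and 6.50 Mb, and all 4 gaps around Sox2 exceeded those quartiles. Sox14 had its next FLAG intervals 25.1 and 7.52 Mb away and Sox3 26.0 and 10.8 Mb away, although EZH2 came within 0.897 Mb of Sox14 and 0.339 Mb of Sox3. Sox21 had another EZH2 interval 0.196 Mb above, without FLAG until 0.899 Mb. Sox1 was the least isolated, with EZH2 42.0 kb and H3K27me3 11.0 kb above its distal site.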

How the data were processed

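Chromatin of EED-floxed mouse embryonic fibroblasts with wild-type EZHIP was fixed, digested with micrococcal nuclease to single nucleosomes and precipitated with antibodies to EZH2, FLAG or H3K27me3, per the labels' protocols. Bowtie 1.0.0, deepTools and build mm9 are named in the submitters' processing notes. The peak caller, its threshold and any control library were not given in the sources used here. Each list, as deposited by the authors, holds start and end positions in bp of 1 library, with nothing pooled. In these files starts are multiples of 200 bp and ends lie 1 bp below one; printed starts are counted from 1. Depth is unknown.

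Intervals were joined to genes by the 40 kb rule, with no filter. Overlap meant at least 1 bp, and sites were chains of overlapping intervals of the 3 lists. Widths, ranks, edge distances and covered lengths were computed with Python 3.11.15, numpy 2.4.6 and scipy 1.17.1, and overlap counting was checked on simulated data, where 90 of 90 overlaps placed on 902 EZH2 intervals were found. All 5 genes are named, the rule being that every member is described. The members and alternatives were chosen with earlier results of these data known. Gene names, neighbours, strands and promoter sequences are from RefSeq tables of GRCm38.p6, and no coordinate was converted. Other Sox genes and fibroblast or neural marker genes were not placed, because annotation of mm9 was not used here.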

Additional observations from a re-analysis of the deposited data

How the results depend on the processing

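No paired analysis was possible because each antibody has 1 library. The alternatives were windows of 20 and 100 kb, a required overlap of 50% of the smaller interval, leaving out intervals up to the lower quartile of width, a common narrowest width of 2199 bp and joining gaps of up to 5 kb. Joining up to 10 kb and keeping only the chains over the gene position were added after seeing the data. All 5 genes kept all 3 signals under each of them. Intervals of all 3 lists cover each gene position, so changing the window, joining gaps or keeping the chains could not remove a signal. All FLAG intervals lay inside EZH2, so the 50% overlap rule could not lower the FLAG share. The share of EZH2 intervals with FLAG stayed at 100% except for 85.7% with the 100 kb window, which takes in the lone EZH2 interval near Sox1.

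The ratio of H3K27me3 to EZH2 length (0.906) was 0.903 with the 20 kb window or the chains over the position and 0.894 with 100 kb. The ratio of FLAG to EZH2 (0.551) was 0.554 with those first 2 settings, 0.541 with 100 kb, 0.540 without narrow intervals or with the common width, and 0.671 with 10 kb joining. That joining closes the gaps at Sox2, whose ratio rose from 0.233 to 0.675, so the low FLAG coverage of Sox2 depends on how neighbouring calls are joined; leaving out narrow intervals gave 0.190. The median percentage of the list that was narrower than a SoxB interval was 93.7 for EZH2, and 94.6 (20 kb, chains), 92.8 (100 kb), 91.5 (narrow left out), 92.5 (5 kb joined) and 91.7 (10 kb joined). For FLAG it was 69.9, and 75.6 (20 kb, chains), 66.8, 68.2 and 91.8 (narrow left out, 5 kb and 10 kb joined) and 69.3 (common width). For H3K27me3 it was 86.6, and 86.9 (20 kb, chains), 86.3 (100 kb), 82.0 (narrow left out, common width), 86.6 (5 kb joined) and 86.4 (10 kb joined). The median H3K27me3 edge distance moved from -900 to -1000 bp with 20 kb or chains.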
